A study of Mus musculus with 20 samples.

Results

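The glycolysis and hypoxia response genes described here are 39 named mouse genes: 2 glucose transporters, 14 glycolytic enzymes, 4 genes of lactate and pyruvate handling, 2 enzymes that make and break fructose 2,6-bisphosphate, 4 genes of the hypoxia-inducible factor (HIF) and its oxygen sensing, and 13 other genes known as HIF targets. They were taken by symbol from the count tables, and all 39 had a row among 41115 genes. A CPM (counts per 1000000 counts of the library) of at least 1 in 3 of the 20 libraries was required, which kept 35 members and 12139 genes. The 4 members that did not pass were Aldoc, Egln3, Gbe1 and Car9.

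The series followed poly-A RNA of cells labelled as mouse spleen at 0, 15 and 30 min and 1, 2, 3, 6, 12, 24 and 48 h. One arm, 10 libraries from 1 mouse, is labelled with a cocktail of LPS (lipopolysaccharide), IL4 (interleukin 4) and TGFb (transforming growth factor beta), which the series gives as a stimulation for AID, the deaminase of antibody class switching. The other arm, 10 libraries from 1 mouse, is labelled as not treated, and strain, age and dose are not in the labels. Each arm and time has 1 library, so the arm cannot be told apart from the animal, and the tests below use neighbouring times as replicates: early (15 min, 30 min and 1 h), middle (2, 3 and 6 h) and late (12, 24 and 48 h). Their p-values measure spread between times, not between animals.

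Library totals ranged from 36873155 to 60918651 counts, and 3 counts correspond to 0.0492 to 0.0814 CPM. B cell markers dominated the spleen label: 8 B cell genes summed to 1690 to 2500 normalised CPM in every library, 6 T cell genes to 2.11 to 7.73 and 7 macrophage genes to 25.6 to 97.3. Of the T cell genes Cd4 was the most abundant, at up to 5.2, and Cd3e reached at most 0.223. Of the macrophage genes Csf1r reached 42.6, Emr1 36 and Cd68 22.5, and Lyz2 at most 0.077. The 2 libraries of a time were always sequenced in different lanes. The stimulated 0, 1, 12 and 24 h libraries were in lane 2 and the untreated 0 and 15 min, 1, 12 and 24 h libraries in lane 1, whereas the 48 h libraries were in lanes 4 and 3.

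As background, glycolysis splits glucose into pyruvate, and lactate dehydrogenase turns pyruvate into lactate, which monocarboxylate transporters carry out of the cell. HIF is a transcription factor pair whose alpha subunit is made continuously and, when oxygen is available, is hydroxylated by prolyl hydroxylases, bound by the von Hippel-Lindau protein and degraded. When it is stabilised it binds short DNA elements with the core ACGTG or GCGTG and raises the transcription of most glycolytic enzymes and of genes for mitophagy, collagen hydroxylation and angiogenesis. Activated B cells are known to increase glucose uptake and glycolysis, and Toll-like receptor signals can raise HIF-1 alpha.

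Promoters are shown because most members carry this core there. RefSeq windows of 250 bases before a transcription start (GRCm38.p6) were matched by symbol for 37 of the 39 members. Slc2a3 and Bnip3l are named only. Each window was searched on both strands for ACGTG and GCGTG. Of these 37 genes 33 (89.2%) held at least 1 such match in a window, against 41.5% of 27025 RefSeq genes and 61.7% of 8773 genes that passed the filter. Among the 33 matched members that passed it the share was 90.9%. ACGTG alone stood in 60.6% of these 33 and in 25.5% of the 8773 genes. CACGTG, which contains ACGTG on both strands and counts as 2 matches, stood in 18.2% and 9.99%. Counted by window, since some genes have several, 77.4% of 53 member windows and 55.6% of 11201 windows of genes that passed held a match. Below, capitals mark every match, CACGT and CACGC being the cores read on the other strand.
Slc16a3 (chr11:120948817-120949066, plus strand): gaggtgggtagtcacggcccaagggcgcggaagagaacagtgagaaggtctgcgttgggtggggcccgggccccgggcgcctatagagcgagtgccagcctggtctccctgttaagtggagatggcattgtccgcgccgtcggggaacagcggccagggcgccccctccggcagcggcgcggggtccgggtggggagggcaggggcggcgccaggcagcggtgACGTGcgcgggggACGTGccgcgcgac
Bnip3 (chr7:138909507-138909756, minus strand): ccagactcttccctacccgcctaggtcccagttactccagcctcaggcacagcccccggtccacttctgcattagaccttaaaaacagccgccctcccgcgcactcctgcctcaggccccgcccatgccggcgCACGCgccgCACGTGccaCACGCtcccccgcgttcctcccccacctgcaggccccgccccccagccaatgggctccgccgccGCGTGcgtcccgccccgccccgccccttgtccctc
P4ha1 (chr10:59323046-59323295, plus strand): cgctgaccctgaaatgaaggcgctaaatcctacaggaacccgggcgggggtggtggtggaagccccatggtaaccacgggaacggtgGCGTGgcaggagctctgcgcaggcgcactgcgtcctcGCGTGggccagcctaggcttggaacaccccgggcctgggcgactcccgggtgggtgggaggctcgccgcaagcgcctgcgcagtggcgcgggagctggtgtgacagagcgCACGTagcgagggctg
P4ha2 (chr11:54100674-54100923, plus strand): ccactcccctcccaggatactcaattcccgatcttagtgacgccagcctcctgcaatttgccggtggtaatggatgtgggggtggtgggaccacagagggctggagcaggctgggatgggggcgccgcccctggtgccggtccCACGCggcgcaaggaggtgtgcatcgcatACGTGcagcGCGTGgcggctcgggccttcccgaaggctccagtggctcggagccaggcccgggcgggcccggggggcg
Ankrd37 (chr8:45999851-46000100, minus strand): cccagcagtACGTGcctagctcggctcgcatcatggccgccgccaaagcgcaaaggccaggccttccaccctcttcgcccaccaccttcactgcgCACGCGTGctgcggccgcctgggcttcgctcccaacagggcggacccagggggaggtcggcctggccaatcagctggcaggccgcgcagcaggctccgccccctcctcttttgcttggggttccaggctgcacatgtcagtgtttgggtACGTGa
These windows belong to 5 of the 6 members with the highest late fold changes. In GENCODE vM21 they share at most 17 bases with exons of their own genes and none with exons of others. The windows of Slc16a3, Bnip3, P4ha2 and Ankrd37 lie within or across the edge of the gene model, and that of P4ha1 lies before it. That of Slc16a3 had 2 matches, both ACGTG and both near the RefSeq start, those of P4ha1 and P4ha2 had 3 each, that of Ankrd37 had 4 and that of Bnip3 had 5. Of the 33 members matched by symbol that passed the filter, 30 held a match, so matches could hardly separate members by their response. Among these members 23 of 25 that were higher late had a match, and so had 6 of 7 that did not pass. For ACGTG alone the counts were 16 of 25 and 4 of 7. Some members were listed as known HIF targets, so none of these shares is a test of the motif. Tpi1 and Gpi1, higher late, and Vhl, which did not pass, had neither core in these windows.

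**Figure D1:**
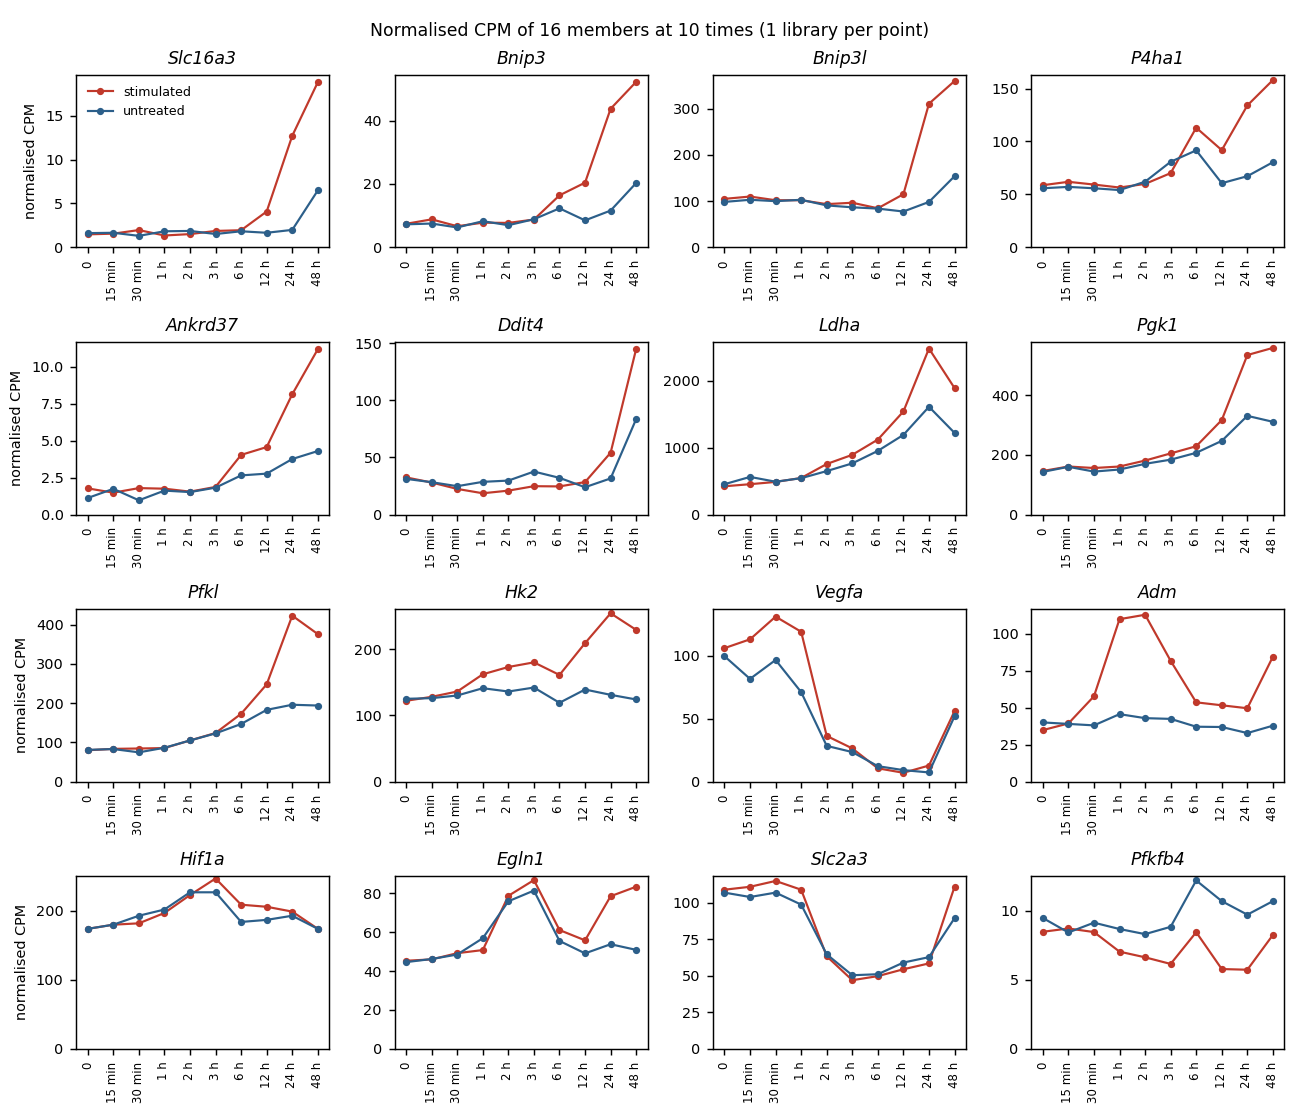
Normalised CPM (linear axis from 0) of 16 members at 10 times, 1 library per point, stimulated in red and untreated in blue; the times are evenly spaced, not to scale. The 2 lines of Slc16a3, Bnip3 and Bnip3l part at 12 to 48 h. Those of Adm are apart from 30 min on, furthest at 1 to 3 h and at 48 h, and those of Hif1a and Slc2a3 stay close.

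In the late phase the genes of HIF targets, lactate handling and glycolysis were mostly higher in stimulated cells, by up to 3.54-fold for Slc16a3 and 2.84-fold for Bnip3. Of the 35 members 26 were higher, 1 was lower and 8 did not pass (edgeR, adjusted p under 0.05). Over all 12042 genes tested 17.8% were called higher and 18.3% lower. Fewer members passed under other models of time: 14 relative to the 0 min pair, all higher (3.49% of all genes were), and 12 without time as a block, 11 higher (5.98%) and 1 lower (6.04%). Only Hk2 passed with lane added to a fit that follows time by a spline (0.797% of all genes were higher). Slc16a3 did not pass relative to the 0 min pair, and Bnip3 passed there and without the block. The median log2 fold change of the members was 0.47, against 0 over all genes. Bulk libraries cannot tell more RNA per cell from more cells of a type. The series below give normalised CPM in order of time from 0 min to 48 h.

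The other HIF target genes had the highest median of the roles, a log2 fold change of 0.74, with 10 of 11 tested members higher and none lower. Bnip3 (ENSMUSG00000078566.8, chr7:138890836-138909519) and its paralogue Bnip3l encode receptors for the removal of mitochondria by autophagy. Bnip3 stood at 7.43, 8.83, 6.67, 7.78, 7.71, 8.77, 16.4, 20.4, 43.7 and 52.2 in the stimulated arm. The untreated arm gave 7.26, 7.51, 6.28, 8.25, 6.99, 8.87, 12.3, 8.51, 11.6 and 20.3. All 3 late stimulated values lay above all 3 late untreated ones, although 20.4 at 12 h was close to the untreated 20.3 at 48 h. The late log2 fold change was 1.51 ± 0.13 (SE, edgeR adjusted p = 1.1e-05). At 0 min in stimulated cells Bnip3l was the more abundant of the pair, at 27.1 normalised CPM per kilobase of exon against 3.28 for Bnip3. Bnip3l stood at 105, 110, 102, 102, 93.6, 96.6, 84.6, 115, 311 and 360 with stimulation and at 98.4, 103, 100, 103, 90.8, 86.7, 83.9, 77.6, 98.3 and 154 without. Its late arms overlapped, since 115 at 12 h was under the untreated 154 at 48 h. The late log2 fold change of Bnip3l was 1.15 ± 0.14 (adjusted p = 0.00014).

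P4ha1 and P4ha2 encode the catalytic subunits of collagen prolyl 4-hydroxylase. P4ha1 (ENSMUSG00000019916.14, chr10:59323296-59373304) stood at 58.7, 61.9, 59.3, 56.5, 59.9, 70.1, 113, 91.8, 134 and 158 in stimulated cells and at 55.8, 57.1, 55.8, 54.1, 62, 80.8, 91.6, 60.6, 67.2 and 80.4 in untreated cells. Both arms had a local maximum at 6 h, and from 12 h the stimulated values lay above all late untreated ones. The late log2 fold change was 0.85 ± 0.09 (edgeR adjusted p = 6.4e-05). P4ha2 was scarce, at 2.11, 2.38, 2.72, 2.8, 2.62, 2.95, 3.3, 1.97, 2.57 and 8.65 against 2.74, 2.9, 2.48, 3.5, 2.45, 3.71, 2.91, 1.1, 1.92 and 3.42. Its late log2 fold change of 0.90 ± 0.20 (adjusted p = 0.0047) rested on 48 h, without which it was 0.60 (adjusted p = 0.065).

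Ankrd37, an ankyrin repeat gene known as a HIF target, stood at 1.77, 1.48, 1.79, 1.75, 1.55, 1.87, 4.04, 4.57, 8.15 and 11.2 with stimulation. Without it the values were 1.12, 1.74, 0.963, 1.62, 1.52, 1.82, 2.65, 2.77, 3.76 and 4.3. The arms did not overlap late, although 4.57 at 12 h was close to the untreated 4.3 at 48 h. The late log2 fold change was 1.08 ± 0.20 (edgeR adjusted p = 0.0019). At 0 min the stimulated value was already the higher, 1.77 against 1.12. Ankrd37 did not pass late relative to the 0 min pair, without time as a block or with lane added to a spline of time. Ankrd37 overlaps Ufsp2 and Lrp2bp on the opposite strand over 406 exon bases, and whether reads were counted by strand is not given in the sources used here. Ddit4 encodes an inhibitor of the growth kinase complex mTORC1. Ddit4 stood at 32.5, 28, 22.4, 18.6, 20.9, 24.8, 24.6, 28.4, 54.1 and 145 in the stimulated arm and at 31.2, 28.3, 24.8, 28.6, 29.7, 37.6, 32.1, 23.9, 31.6 and 83.6 in the untreated arm. It was lower with stimulation from 1 to 6 h and higher from 12 h on, with log2 fold changes of -0.49 ± 0.12 (middle, adjusted p = 0.018) and 0.60 ± 0.12 (late, adjusted p = 0.0027).

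The other 4 HIF targets that were higher late differed by 0.39 to 0.74 on the log2 scale: the histone demethylase gene Kdm3a (0.69 ± 0.06), the endoplasmic reticulum oxidase gene Ero1l (0.74 ± 0.06), the vasodilator peptide gene Adm (0.74 ± 0.22) and the mitochondrial protein gene Higd1a (0.39 ± 0.10). Vegfa, the angiogenic growth factor, was the 1 tested member of this group that did not pass, at 0.17 ± 0.17. It stood at 106, 113, 131, 119, 36.3, 26.4, 10.6, 7.05, 12.8 and 56 in stimulated cells and at 99.6, 81.6, 96.6, 71.1, 28.4, 23.5, 12.3, 9.16, 7.32 and 51.9 in untreated cells. Both arms were lower at 2 h than at 1 h, lay lowest at 12 or 24 h and were back at 56 and 51.9 at 48 h.

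Lactate and pyruvate genes were higher in 4 of 4 cases late. Slc16a3 (ENSMUSG00000025161.16, chr11:120948480-120960868), the monocarboxylate transporter MCT4 known for lactate export, stood at 1.48, 1.56, 1.97, 1.35, 1.51, 1.87, 1.95, 4.08, 12.7 and 18.8 with stimulation and at 1.62, 1.66, 1.31, 1.83, 1.87, 1.52, 1.83, 1.66, 1.99 and 6.48 without. The arms were close up to 6 h, and the stimulated arm was higher at each of 12, 24 and 48 h, although 4.08 at 12 h lay under the untreated 6.48 at 48 h. The late log2 fold change was 1.82 ± 0.25 (edgeR adjusted p = 0.00024). It stayed the minor transporter: per exon length it made up 0.604% of Slc16a1 and Slc16a3 together at 0 min and 4.65% at 48 h with stimulation, against 0.68% and 1.93% without. Slc16a1, the transporter MCT1, was higher by 0.17 ± 0.05, and Pdk1, a kinase that shuts off pyruvate dehydrogenase, by 0.70 ± 0.09. Pdk1 stood at 91.9, 90.9, 88.9, 83.2, 71.5, 68.8, 62.7, 74.6, 112 and 155 with stimulation and at 81.3, 82.2, 80.4, 79.1, 68.7, 69.6, 60.6, 57.2, 67 and 78 without. Both arms of Pdk1 were lower at 6 h than at 0 min, and the stimulated arm alone lay above its 0 min value at 24 and 48 h.

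Ldha (ENSMUSG00000063229.15, chr7:46841475-46855627), the A subunit of lactate dehydrogenase, stood at 422, 453, 487, 546, 755, 892, 1120, 1540, 2480 and 1890 in stimulated cells. Untreated cells gave 453, 562, 490, 543, 649, 764, 951, 1190, 1610 and 1220. Both arms were highest at 24 h and lower at 48 h, the late arms overlapped (1540 at 12 h against 1610 untreated at 24 h), and the late log2 fold change between them was 0.54 ± 0.07 (edgeR adjusted p = 0.00014). Per exon length Ldha became the most abundant member, with 127 normalised CPM per kilobase at 0 min and 750 at 24 h in stimulated cells and 137 and 485 in untreated cells. At 0 min Aldoa, Pkm and Gapdh lay above it in both arms. This rank rests on the division by all annotated exon bases, 3310 for Ldha and 5001 for Pkm. Not divided by length, Pkm lay above Ldha in all 20 libraries. At 24 h Pkm read 2840 with stimulation and 1960 without, against 2480 and 1610 for Ldha.

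Of 13 glycolytic enzymes tested, 9 were higher late, none was lower and 4 did not pass, with a median log2 fold change of 0.40. Hexokinase 2 (Hk2, which traps glucose in the cell) and phosphofructokinase of liver type (Pfkl, a committed step) moved furthest. Hk2 read 209, 254 and 229 at 12, 24 and 48 h with stimulation against 139, 131 and 124 without, with no overlap and a log2 fold change of 0.80 ± 0.07 (edgeR adjusted p = 1.1e-05). Pfkl stood at 80, 83.6, 84.5, 85.6, 105, 124, 173, 248, 423 and 376 in stimulated cells and at 81, 83.1, 74.7, 86.4, 105, 123, 147, 183, 196 and 194 in untreated cells. The curves lay together up to 3 h, and the late log2 fold change was 0.83 ± 0.10 (adjusted p = 0.00014).

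Pgk1 encodes phosphoglycerate kinase, Gapdh glyceraldehyde phosphate dehydrogenase, Tpi1 triose phosphate isomerase, Pgam1 phosphoglycerate mutase and Eno1 enolase. Pgk1 (ENSMUSG00000062070.12, chrX:106187100-106203699) stood at 146, 161, 156, 161, 181, 205, 229, 317, 535 and 559 with stimulation and at 143, 160, 144, 151, 170, 184, 207, 247, 331 and 311 without, a late log2 fold change of 0.62 ± 0.07 (edgeR adjusted p = 9.8e-05). At each late time the stimulated value of Pgk1 was the higher, and 317 at 12 h lay under the untreated 331 at 24 h. Gapdh, often used to scale RNA measurements, stood at 658, 693, 714, 738, 862, 908, 1030, 1260, 1730 and 1600 against 699, 764, 695, 763, 821, 911, 965, 1090, 1460 and 1250. The difference in Gapdh was smaller, 0.26 ± 0.05 (adjusted p = 0.0017), and its late arms overlapped.

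Tpi1 stood at 201, 212, 220, 221, 289, 338, 437, 581, 1010 and 865 in stimulated and 199, 233, 206, 230, 272, 329, 403, 461, 580 and 537 in untreated cells. All late stimulated values of Tpi1 lay above the untreated ones, although 581 at 12 h and 580 at 24 h nearly met. Eno1 stood at 260, 276, 297, 320, 370, 384, 452, 627, 936 and 832 and 280, 300, 278, 279, 319, 360, 415, 527, 661 and 590. Pgam1 stood at 57.6, 61.6, 66.2, 72, 98.5, 110, 129, 157, 233 and 167 and 63.2, 72.3, 66.5, 74.8, 85.9, 94.6, 107, 130, 168 and 119. Late values of Eno1 and Pgam1 overlapped between the arms. The late log2 fold changes were 0.60 for Tpi1, 0.41 for Eno1, 0.40 for Pgam1 and 0.45 for the pyruvate kinase gene Pkm. Sequence shared with other genes limits some of these counts: of all 50-base stretches, 53.9% in Pgk1, 36.2% in Pgam1, 26% in Eno1, 25.8% in Pkm, 24.7% in Gapdh, 20.8% in Bnip3l and 16.5% in Bnip3 also occur elsewhere in annotated genes, so reads could be split or lost.

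The 4 enzymes that did not pass late were Hk1 (0.07 ± 0.09), Aldoa (0.11 ± 0.06), Pfkm (0.26 ± 0.11) and Pfkp (-0.05 ± 0.06). Aldoa, fructose bisphosphate aldolase, was abundant in both arms, at 919, 1250 and 1200 with stimulation and 926, 1140 and 1010 without. Pfkp, the platelet type of phosphofructokinase, stood at 279, 253, 272, 258, 198, 128, 97.8, 126, 146 and 247 against 286, 271, 296, 249, 205, 148, 123, 139, 145 and 243. Both arms of Pfkp were lowest at 6 h and high again at 48 h. Pfkp shares 748 exon bases with Pitrm1 on the opposite strand.

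The 3 phosphofructokinase genes changed places. Per exon length, Pfkp made up 46.8% of the 3 at 0 min in stimulated cells and Pfkl 26.9%, and at 24 h the shares were 12.1% and 70.9%. In untreated cells Pfkp went from 46.9% to 20.2% and Pfkl from 26.7% to 54.9%. At 48 h Pfkl was at 58.1% and 47.5%. The exchange thus occurred in both arms and went further with stimulation at 24 h. Exon length here is all annotated exon bases of a gene, 13401 for Pfkp, 6675 for Pfkl and 3340 for Pfkm. Not divided by length, Pfkp still lay above Pfkl at 2 h, at 198 against 105 with stimulation and 205 against 105 without. At 6 h Pfkl was the higher in both arms (173 against 97.8 and 147 against 123). At 48 h untreated Pfkp lay above Pfkl again, at 243 against 194. Hk2 held 79.4% of Hk1 and Hk2 at 0 min and 86.6% at 24 h with stimulation, against 79.9% and 78.8% without. These shares are single libraries with no test.

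**Figure D2:**
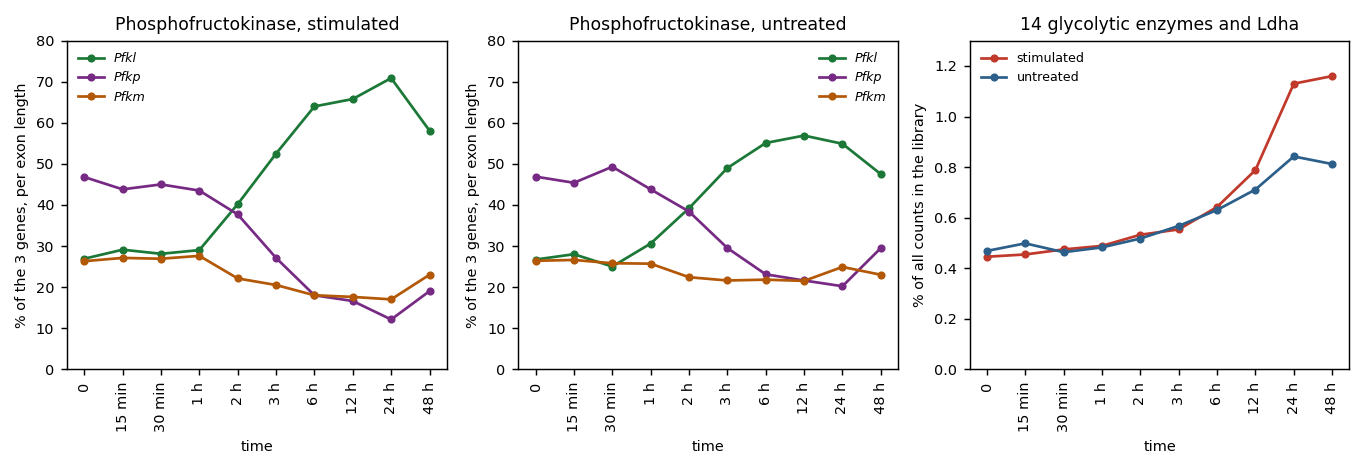
Left and middle: share of each phosphofructokinase gene in the sum of 3, per exon length, by time in each arm. Right: counts of the 14 glycolytic enzymes and Ldha as percent of all counts in the library. Per exon length Pfkl overtakes Pfkp at 2 h in both arms. The sum at right reaches 1.16% with and 0.812% without stimulation at 48 h.

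Together the 14 enzymes and Ldha took 0.445% of all counts at 0 min in stimulated cells, 0.642% at 6 h, 0.788% at 12 h, 1.13% at 24 h and 1.16% at 48 h. In untreated cells they took 0.468%, 0.63%, 0.711%, 0.842% and 0.812%. The arms were alike up to 6 h and parted from 12 h on. Library totals, not TMM, are the base of these percentages.

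The 2 enzymes of fructose 2,6-bisphosphate, which activates phosphofructokinase, went opposite ways. Pfkfb3, which mainly makes it, stood at 54.5, 56.7, 62.8, 75.2, 105, 114, 132, 123, 134 and 103 with stimulation and 56.6, 67.8, 65, 77.1, 94.5, 92.8, 104, 110, 110 and 75.9 without, and its late log2 fold change was 0.29 ± 0.07 (edgeR adjusted p = 0.0056). Pfkfb4 stood at 8.48, 8.72, 8.46, 7.04, 6.63, 6.15, 8.45, 5.78, 5.73 and 8.25 and 9.48, 8.43, 9.14, 8.68, 8.31, 8.84, 12.2, 10.7, 9.72 and 10.7. Every stimulated value of Pfkfb4 from 30 min on lay below the untreated value of its time, and it was the 1 member lower late, at -0.68 ± 0.12 (adjusted p = 0.0012). The stimulated value was already the lower at 0 min, 8.48 against 9.48, and the higher at 15 min, 8.72 against 8.43. Pfkfb4 did not pass late relative to the 0 min pair or with lane added to a spline of time. Of the glucose transporters, Slc2a1 (GLUT1) was higher late by 0.58 ± 0.10 (adjusted p = 0.0013) and Slc2a3 (GLUT3) did not pass at 0.02 ± 0.08. Slc2a1 stood at 83.5, 83.3, 118, 178, 171, 158, 78.1, 93.7, 121 and 107 with stimulation and at 88.1, 87.2, 108, 132, 167, 162, 73.3, 76.8, 77.5 and 60.2 without. Each arm of Slc2a1 had a maximum between 1 and 3 h, and only the late values separated without overlap.

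Of the HIF core and oxygen sensing genes, Hif1a and Vhl differed little between the arms at the RNA level. Hif1a (ENSMUSG00000021109.13, chr12:73901375-73947530), the oxygen-regulated alpha subunit, stood at 174, 180, 182, 197, 223, 247, 209, 206, 199 and 174 in stimulated and 174, 180, 193, 202, 227, 227, 184, 187, 193 and 174 in untreated cells. Both arms were highest at 2 to 3 h and back at 174 at 48 h, and the late log2 fold change was 0.05 ± 0.05 (edgeR adjusted p = 0.42). RNA levels carry no measure of the protein. Vhl, which marks HIF alpha for degradation, stood at 32.6, 33.6, 31.9, 28.8, 31.9, 35.3, 27.3, 23.7, 31.4 and 30.2 and 35, 33.2, 34, 34.2, 34.7, 30.2, 29.4, 26.8, 30.1 and 25.9. Its late difference was 0.03 ± 0.09 (adjusted p = 0.84), and its sign turned with library totals as the only scaling and without 48 h.

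Egln1, the main HIF prolyl hydroxylase and itself a HIF target, stood at 45.3, 46, 49.2, 50.8, 78.7, 86.8, 61.1, 55.8, 78.5 and 83.4 with stimulation and 44.6, 46.2, 48.5, 56.9, 75.9, 81.4, 55.5, 49.1, 53.8 and 50.9 without. It peaked at 3 h in both arms and was higher late with stimulation, by 0.47 ± 0.08 (edgeR adjusted p = 0.0014). Egln1 did not pass late relative to the 0 min pair, without time as a block or with a spline of time, with or without lane. Egln3, a hydroxylase of the same family, had 0 counts in all 20 libraries, which allows at most 0.0492 to 0.0814 CPM by library. Gbe1 (glycogen branching enzyme) had counts in 2 stimulated libraries, at 0.0436 and 0.0374 normalised CPM, and Car9 (carbonic anhydrase 9) in 1, at 0.0374. Aldoc, aldolase C, lay between 0.183 and 2.21, highest at 48 h in the stimulated arm.

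**Figure D3:**
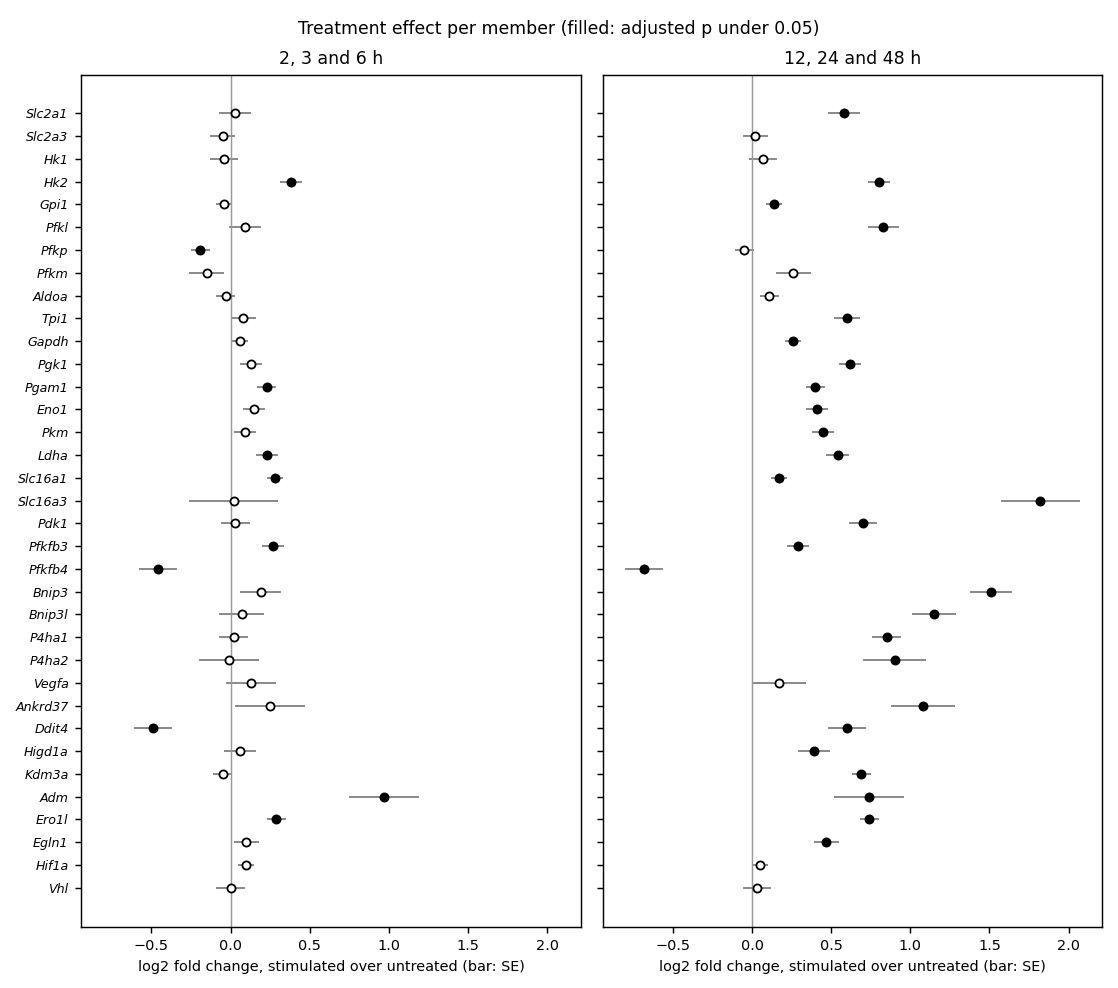
Log2 fold change of stimulated over untreated for 35 members in the middle (left) and late (right) phase, bars 1 SE, filled points with an edgeR adjusted p under 0.05. In the late panel 26 filled points lie right of 0 and 1, Pfkfb4, left of it; in the middle panel 7 lie right and 3 left.

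Some values of the samples move with the late result. Summed normalised CPM of 7 macrophage genes was 47.2 to 97.3 in late stimulated and 25.6 to 38.8 in late untreated libraries, with Emr1 and Csf1r higher (2 of 3 tested), and Lyz2 and Cd14 at or near 0 in every library. Summed dendritic cell genes were 35.4 to 66 and 18.4 to 22, with Flt3 and Zbtb46 higher (2 of 3 tested) and Itgax at most 0.593. Summed B cell genes were 1690 to 1910 and 2160 to 2270, with 4 of 8 lower, Cd22 furthest at -2.51, and 1 higher. Summed plasma cell genes were 508 to 924 and 844 to 1080, with all 3 tested lower, Prdm1 at -2.01, Igj at -0.43 and Xbp1 at -0.38. The tested NK cell gene, Prf1, was lower (-0.28), Pdgfrb of stroma was higher (1.01, 1 of 3 tested) and Lat of T cells was higher (0.85, 1 of 2 tested). The other tested genes of the macrophage, dendritic cell, T cell and stroma lists did not pass and had negative log2 fold changes. These were -0.21 (macrophage), -0.52 (dendritic cell), -0.33 (T cell), and -0.58 and -0.16 (stroma). The part of all these marker genes in the late result was not tested.

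A comparison within lanes was made at 24 h, and it was chosen after the data had been seen. The libraries of 1 h and 12 h were in the same lanes as those of 0 min but were not used. The members' median log2 ratio between the arms was -0.01 at 1 h and 0.25 at 12 h, against 0.54 at 24 h. In each arm the 0 min and 24 h libraries shared a lane, so the change from 0 min can be taken without a change of lane. The members' median log2 difference of these changes was 0.61, stimulated minus untreated, and 0.01 over all genes. It was above 0 for 33 of 35 members and over 1.5-fold for 18, and 8.06% of all genes were over 1.5-fold. Bnip3l changed by 1.57 on the log2 scale in stimulated cells and by 0 in untreated ones, Bnip3 by 2.48 and 0.64, Slc16a3 by 2.73 and 0.23, and Ldha by 2.56 and 1.82. These are single libraries with no test.

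The difference between the arms opened late. The median log2 ratio of stimulated over untreated across the 35 members was -0.02 at 0 min and at 15 min, 0.06 at 30 min, -0.01 at 1 h, 0.05 at 2 h, 0.03 at 3 h and 0.12 at 6 h. At 12, 24 and 48 h it was 0.25, 0.54 and 0.66. Adm was among the members more than 1.5-fold higher at each of 30 min (2 members), 1 h (2), 2 h (1) and 3 h (1), where 0.725%, 1.38%, 2.22% and 2.66% of all genes were. Members more than 1.5-fold higher numbered 0 at 6 h, 6 at 12 h, 17 at 24 h and 21 at 48 h, where 3.73%, 4.32%, 7.69% and 9.28% of all genes were. The 6 at 12 h were Slc16a3, Bnip3, P4ha1, P4ha2, Ankrd37 and Kdm3a. P4ha1 lay just inside that bound, at a log2 ratio of 0.59, and Hk2 just outside it, at 0.58. Late stimulated values lay wholly above late untreated ones for 11 of 35 members, where 11.7% of all genes did so, and wholly below them for Pfkfb4, where 12.8% of all genes did so.

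**Figure D4:**
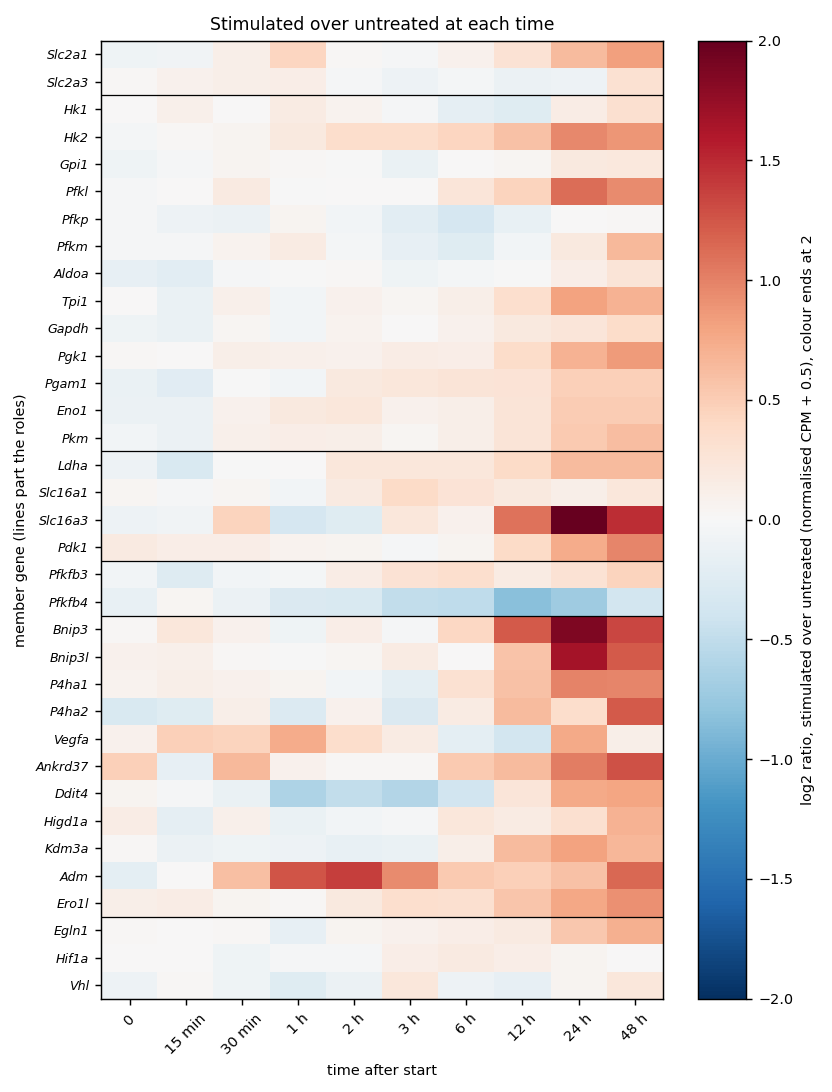
Log2 ratio of stimulated over untreated normalised CPM, with 0.5 added to each, for 35 members (rows, grouped by role) at 10 times (columns); red is higher with stimulation, and colours end at 2. The right 3 columns are mostly red, Adm is red from 30 min on, and Pfkfb4 is blue from 30 min on, with a ratio of -0.15 at 0 min.

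In the middle phase 7 of 35 members were higher, 3 were lower and 25 did not pass (edgeR; over all genes 10.2% were higher and 10.3% lower). The median of the members was 0.07 and that of all genes 0.01. Higher were Hk2 (0.38 ± 0.07), Pgam1 (0.23 ± 0.06), Ldha (0.23 ± 0.07), Slc16a1 (0.28 ± 0.05), Pfkfb3 (0.27 ± 0.07), Ero1l (0.29 ± 0.06) and Adm (0.97 ± 0.22). Lower were Ddit4 (-0.49 ± 0.12), Pfkfb4 (-0.46 ± 0.12) and Pfkp (-0.19 ± 0.06). Adm had an early peak and a second rise at 48 h: with stimulation it read 34.9, 39.4, 57.8, 110, 113, 81.8, 53.7, 51.7, 49.7 and 84.6, and without it 40.1, 39.1, 38.1, 45.7, 43, 42.5, 37.2, 37, 32.9 and 37.9. Without 2, 3 or 6 h 6, 2 and 4 members passed, and relative to the 0 min pair none did (7 at an unadjusted p under 0.05). Library totals as the only scaling gave 6 members and turned the share of higher among all called genes from 49.9% to 25%.

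In the early phase no member passed (edgeR), with 2 of 35, Vegfa and Adm, at an unadjusted p under 0.05. DESeq2 called none and limma-voom called Vegfa. Over all genes 2.24% were called. Adm differed by 0.63 ± 0.22 (adjusted p = 0.17) and Vegfa by 0.55 ± 0.15 (adjusted p = 0.086).

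The treatment difference was higher in the late than in the middle phase in 14 of 35 members and lower in none by the test of the change itself (edgeR; 3.55% of all genes were higher and 3.19% lower). Slc16a3 gained 1.80 ± 0.37 (adjusted p = 0.018), Bnip3 1.31 ± 0.18 (adjusted p = 0.0041) and Ddit4 1.10 ± 0.17 (adjusted p = 0.0065). Ddit4 changed sign, from -0.49 in the middle phase to 0.60 late. The group comprised 5 of 13 enzymes (Hk2, Pfkl, Tpi1, Pgk1 and Pkm), 2 of 4 lactate and pyruvate genes, 6 of 11 other HIF targets and Slc2a1. Kdm3a alone passed in a fit without time as a block, and 5 members passed without 3 h, 6 without 2 h and 7 without 24 h. Calls over all genes fell as well, from 428 higher and 384 lower to 16 and 25 without the block. They were 105 and 89 without 3 h, 136 and 123 without 2 h, and 139 and 133 without 24 h.

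Within the stimulated arm, 15 members rose and 4 fell from the early to the middle phase, and 22 rose and none fell from middle to late (edgeR; over all genes 22.1% and 19.3%, then 11.5% and 10.1%). The 15 were 9 of 13 enzymes with Ldha, Slc16a1, Pfkfb3, Egln1, Hif1a and Higd1a, led by Ldha (0.90 ± 0.18), Pfkfb3 (0.85 ± 0.15) and Pgam1 (0.76 ± 0.16). Vegfa (-2.31 ± 0.75, adjusted p = 0.023), Slc2a3 (-1.06 ± 0.23), Pfkp (-0.88 ± 0.29) and Pfkm (-0.63 ± 0.20) fell. Slc2a3 stood at 109, 111, 115, 109, 63.4, 47, 49.8, 54.5, 58.5 and 111 with stimulation and 107, 104, 107, 98.8, 64.7, 50.4, 51.1, 59.1, 62.8 and 89.5 without, so both arms were lowest at 3 h and higher again at 48 h. From middle to late, 12 of 13 enzymes and 7 of 11 other HIF targets rose, with Slc16a3 at 2.74 ± 0.51, Bnip3 at 1.82 ± 0.37 and Ddit4 at 1.69 ± 0.48. Library totals as the only scaling moved the median of all genes by -0.14 in the first step, gave 12 members and turned the share of higher from 53.4% to 37.5%. The first step gave 9 members without 15 min, 10 without 30 min and 12 each without 3 h and without 6 h. Over all genes that step had 2680 higher and 2337 lower. Without 15 min these were 1811 and 1417, and without 30 min 1768 and 1396. Without 3 h they were 1870 and 1408, and without 6 h 2436 and 2214.

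Untreated cells also changed over time. There 10 members rose and 1 fell from early to middle, and 9 rose and none fell from middle to late (edgeR; over all genes 13.6% and 11.9%, then 6.19% and 5.83%). The first step was led by Pfkl (0.61 ± 0.19), Tpi1 (0.58 ± 0.19) and Ldha (0.57 ± 0.18), and Slc2a3 fell (-0.90 ± 0.22). The 9 that rose in the second step were 8 enzymes and Ldha, with Ldha at 0.76 ± 0.18, Eno1 at 0.70 ± 0.14 and Pgk1 at 0.66 ± 0.17. None of the 11 other HIF targets passed in that step by edgeR, DESeq2 or limma-voom (2 at an unadjusted p under 0.05). Counts of the untreated steps were unstable: the first fell to 0 without 30 min or 3 h, 1 without 15 min and 5 without 1 h or 6 h, and the second to 0 without 3 h or with lane in the fit and 1 without 2 h or 24 h, and rose to 14 without 6 h. Calls over all genes moved too. In the first step 1650 genes were higher and 1439 lower. Without 30 min these were 363 and 335, and without 3 h 460 and 417. In the second step 751 were higher and 708 lower. Without 3 h these were 37 and 56, with lane 1 and 0, and without 6 h 1985 and 1848. Under library totals the first step gave 7 members and 42.2% higher among all called genes in place of 53.4%, and the second 38.7% in place of 51.5%.

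Between 12 and 24 h, which shared a lane within each arm, 13 of 35 members were over 1.5-fold higher at the later time in stimulated cells (2.95% of all genes were) and 1, P4ha2, in untreated cells (1.54%). The 13 included Pfkl, Tpi1, Pgk1, Pkm, Ldha, Slc16a3, Pdk1, Bnip3, Bnip3l, Vegfa and Ddit4. Between 24 and 48 h 7 members were over 1.5-fold higher at 48 h in stimulated cells (12.2% of all genes) and 8 in untreated cells (10.3%), among them Pfkp, P4ha2, Vegfa, Ddit4 and Ero1l in both. Vegfa and Ddit4 were over that bound in both steps in stimulated cells, and P4ha2 in both steps in untreated cells. Ero1l stood at 229, 242, 233, 227, 228, 215, 195, 234, 292 and 641 with stimulation and at 212, 218, 225, 223, 200, 169, 157, 159, 171 and 338 without, so each arm had its highest value at 48 h. Time and lane cannot be told apart in that last step.

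Genes of the same pathways outside the 39 gave a mixed picture late, read here against the 17.8% of all genes that were higher and the 18.3% that were lower. Of 11 other glycolysis genes tested 6 were higher and 1 lower, with the glucose transporter Slc2a6 at 2.26, the enolase Eno2 at 1.04 and the mutase Pgam2 at 0.59, and Pfkfb2 at -0.27. Of 22 other HIF targets 13 were higher, among them Rora (1.64) and Rragd (1.09), and 4 lower, among them Ciart (-1.07), Ppp1r3b (-1.05) and Fut11 (-0.52). Among 14 regulators of HIF, 2 were higher (Tceb2 at 0.20 and Tceb1 at 0.17) and 3 lower: the hydroxylase gene Egln2 (-1.19), the coactivator competitor Cited2 (-0.85) and the coactivator Ep300 (-0.16), shares near those over all genes. Of 11 genes of pyruvate entry into mitochondria 4 were higher (among them Pcx at 0.45, Pdp2 at 0.25 and Pdhb at 0.24) and none lower. None of 8 pentose phosphate genes passed (0 at an unadjusted p under 0.05, median 0.10), and of 10 growth genes linked to Myc 2 were higher (Tfrc at 0.41, which is also among the HIF targets, and Srm at 0.22) and 1 lower (Odc1 at -0.28). Of 8 reference genes 3 were higher, B2m at 0.64, Hprt at 0.23 and Ppia at 0.19.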

How the data were processed

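Poly-A RNA libraries (TruSeq, per the labels' protocols) were measured in 20 samples, 10 times in each of 2 arms with 1 mouse per arm. The deposited values are whole read counts per gene; per the submitters' processing notes STAR and HTSeq were used with GRCm38.p3 (mm10). For versions, annotation and strand setting the sources used here give nothing. Counts were scaled by TMM, and printed levels, normalised CPM, are counts per 1000000 of the library total times the TMM factor. Genes needed a CPM of 1 in 3 libraries. Treatment was tested in 18 libraries after 0 min with edgeR 4.0.16 (quasi-likelihood, R 4.3.3), with time as a factor and 1 treatment term per phase, and change within arms over 20 libraries in 8 groups of arm and phase. P-values were adjusted by Benjamini-Hochberg over all genes, with a threshold of 0.05. Single-time log2 ratios add 0.5 CPM. The labels number no replicates; arms are paired by time, which the treatment fits hold as a block.

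Members and gene lists were chosen with earlier results of these data known. Every member is accounted for. All 20 values are given for the 6 highest and up to 4 lowest called members late, up to 3 each way in late minus middle and in each step within an arm, for Hif1a, Vhl, Egln1, Egln3, Gapdh, Pgk1 and Ldha, and for Adm, Ero1l, Pdk1 and Slc2a1, which were added after their values were seen. From each other list up to 3 called genes each way are named, and the third Myc-linked and reference genes with them. The value of 1 gene that this rule names is not reported here. Alternatives were RLE size factors, library totals, DESeq2 1.42.0, limma-voom (limma 3.58.1), no filter, a CPM of 5, lane as a factor, differences relative to 0 min, no time block, a spline of time (3 df) with and without lane, and each time left out. The fits were tested on simulated data. No 2 libraries were identical. Promoters are from RefSeq, gene models and shared 50-base stretches from GENCODE vM21 (GRCm38).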

Additional observations from a re-analysis of the deposited data

Results flagged for a closer look

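Lone values were looked for in 44 series of 10 libraries, 1 per time, which cover only the members named by rule. In 6 of the 44 the 48 h value stood apart as the highest. They were untreated Slc16a3 (6.48), Bnip3 (20.3), Bnip3l (154) and Ddit4 (83.6), and stimulated Ddit4 (145) and P4ha2 (8.65). Other members were not checked, among them Ero1l, also highest at 48 h in both arms (641 stimulated and 338 untreated). The samples are different times, not replicates, chance would mark about 1 in 20 groups, and the 48 h libraries were sequenced in other lanes than those of 12 and 24 h.

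For 14 members the stimulated over untreated difference itself differed between the late and middle phases (edgeR, test of the difference, late minus middle, log2): Slc16a3 1.80, Bnip3 1.31, Ddit4 1.10, Bnip3l 1.07, P4ha1 0.82, Kdm3a 0.75, Pfkl 0.73, Pdk1 0.66, Slc2a1 0.54, Tpi1 0.51, Pgk1 0.49, Ero1l 0.45, Hk2 0.42 and Pkm 0.36. All 14 gained with time.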

How the results depend on the processing

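All values count members past the threshold out of 35. Late (27 in all, 26 of them higher), the count was 14 relative to the 0 min pair, 12 with no replicate block (no pairing by time) and 1 when lane joined a spline of time. In the middle phase (10) it was 6 with library totals, 0 relative to the 0 min pair, 0 with no replicate block, 3 with a spline and 0 when lane joined it. Early (0) it was 1 with limma-voom and 2 without the filter. Late minus middle (14) it was 1 with no replicate block, 3 with a spline and 0 when lane joined it. Over all genes, the middle phase gave 140 higher and 107 lower with no replicate block, in place of 1228 and 1235. With lane and a spline it gave 18 and 3, and late minus middle then gave 0 and 0. Within arms, library totals gave 12 (stimulated, middle minus early, 19) and 7 (untreated, middle minus early, 11), and lane as a factor gave 0 (untreated, late minus middle, 9). Lane as a factor could not be fitted in the treatment model with time.

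Leaving out each time in turn gave 0 early, 2 to 6 middle, 22 to 29 late and 5 to 20 late minus middle. In the stimulated arm it gave 9 to 19 and then 15 to 23, and in the untreated arm 0 to 13 and then 0 to 14. Calls over all genes moved with the time left out too, as given above for several of these comparisons. The late difference in Vhl turned to -0.01 with library totals and lay between -0.08 (without 48 h) and 0.14 with 1 time left out. Results for the genes named by rule were counted per gene, comparison and setting. Of these, 359 kept direction and side of the threshold, 78 lost the call and 2 reversed. The 359 include late results of Hif1a and Vhl that stayed short of the threshold. Causes were not tested. The other settings run kept each count within 1.5 times its value. Each arm is 1 animal, and 3 counts are at most 0.0814 CPM.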
